A study of Mus musculus with 6 samples.

Results

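The respiratory chain complexes I to V of the inner mitochondrial membrane are not built by their subunits alone. Assembly factors are proteins that insert metal centres and flavins, hold half-built intermediates together or tie the translation of mitochondrial subunits to their insertion, and they are absent from the finished enzyme. 45 such genes were described here in the anterior prostate (AP) of mice, chosen by gene symbol from the 55076 rows of the expression tables: complex I has 14 of them, II has 4, III has 6, IV has 18 and V has 3. All 45 symbols were found.

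AP tissue was taken from 3 OEx and 3 Ctrl male mice at 20 weeks of age and read by RNA-seq. OEx mice carry Pbsn-Cre and a Rosa26 N1ICD allele, so that cells in which the probasin promoter drives Cre express the Notch1 intracellular domain. Ctrl mice are named wild type in the labels, and the study's methods describe them as carrying the Rosa26 N1ICD allele without Cre. The comparison asks how expression in the AP differs with Notch1 activation. Values are FPKM: reads per length of exon, divided by a total per mouse that was not its library total, as described below. They come from whole tissue, in which fewer cells of a type and less RNA per cell cannot be told apart.

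The 6 libraries held between 14762182 and 18650962 reads on annotated genes. Notch1 stood at 41.9, 47.6 and 78.9 FPKM in OEx and at 5.18, 5.55 and 3.34 in Ctrl, and reads of the transgene cannot be separated there from those of the gene itself. Luminal epithelial markers (Krt8, Krt18, Epcam, Cdh1 and Cldn7) summed to 1084 to 1396 FPKM in OEx and 1591 to 1837 in Ctrl, with none at 0. Of these, Krt18 was called lower (log2 fold change -1.49) and Krt8 was lower by FDR alone (-0.43), while Cdh1 was higher by FDR alone (0.63) and all OEx values of Epcam lay above the Ctrl values (0.45, FDR 0.12). Basal markers (Krt5, Krt14, Krt15 and Trp63) summed to 6.79 to 15.9 FPKM against 212 to 249, and all 4 were called lower in OEx. Smooth muscle markers summed to 351 to 418 against 1043 to 2245, with 5 of 5 called lower, and skeletal muscle markers to 24.5 to 31.7 against 186 to 429. The skeletal muscle sum was carried by Acta1. Of its 4 markers, the 2 tested (Acta1 and Ckm) were called lower. Myh2 stood at 0.028 to 0.054 FPKM in OEx and 0 to 0.018 in Ctrl, and Myh4 at 0 in all mice. The anterior prostate secretory markers summed to 2707 to 5925 against 23431 to 23807, a sum carried by Pbsn and Tgm4. Pbsn, Tgm4 and Hoxb13 were called lower and Msmb higher (4.60 on the log2 scale) of the 5. The part of these shifts in cell makeup in the results below was not tested. Replicate 3 of each group stood apart from its group, while replicates 1 and 2 were much alike: their recovered reads differed by a chi-square per degree of freedom of 3.67 in OEx and 2.93 in Ctrl, against 50.4 to 86.7 for every pair with replicate 3. Whether replicates 1 and 2 came from separate mice cannot be told from the values. Ctrl replicate 3 held 16128 FPKM of seminal vesicle secretory genes, against at most 4.36 in the other 5 mice, and OEx replicate 3 held 23.6 FPKM of fibroblast markers, against at least 233 in the other OEx mice.

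In the FPKM as deposited, assembly factor mRNAs were mostly lower in the AP of OEx mice, a direction that depended on the scaling described below. A gene was called when the false discovery rate (FDR) of limma was under 0.05 and the change over 2-fold, on the log2(FPKM + 1) scale on which all fold changes below are given. Of the 41 assembly factors with a mean of at least 1 FPKM, 11 were called lower, in a fit in which 15.7% of the 12833 tested genes were called lower. 1 was called higher, in a fit in which 12.9% of all genes were. By FDR alone, 26 were lower and 3 higher, beside 36.5% and 30.7% of all genes, and 12 passed in neither direction. In 26 members every OEx mouse lay below every Ctrl mouse, as in 38.9% of all tested genes, and in 3 every OEx mouse lay above, as in 33.4%. The median log2 fold change was -0.49, with a range from -2.14 to 1.08, beside -0.08 over all tested genes. At least 1 factor was called lower in every complex except V. With replicates 1 and 2 of each group averaged and counted as 1 sample, 2 against 2, limma called 11 factors lower and 1 higher, the same 12 genes. In that fit 2000 of all 12830 tested genes were called lower and 1617 higher. By FDR alone 19 factors were then lower and 3 higher, and the count over all genes by FDR alone is not given for this fit. The 7 factors that no longer passed were Ndufaf1, Nubpl, Sdhaf2, Cox11, Sco1, Atpaf1 and Atpaf2.

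**Figure D1:**
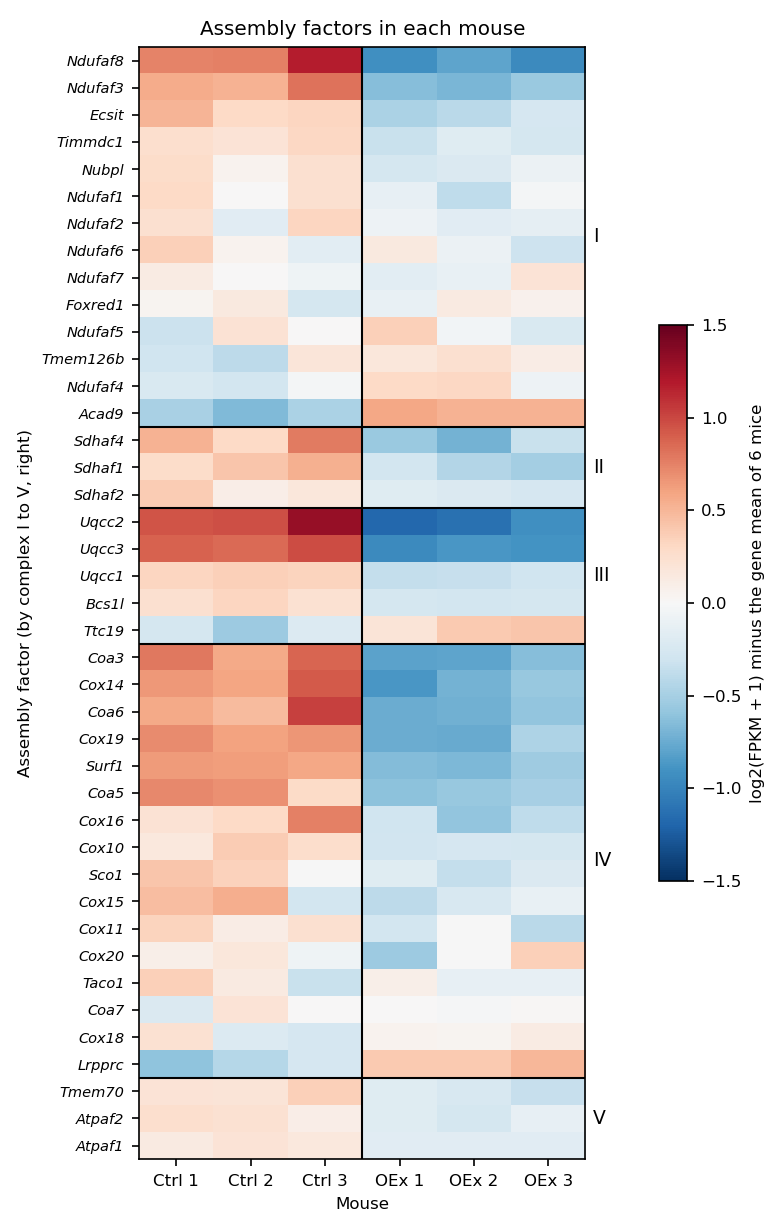
Heat map of the 41 tested assembly factors (rows, by complex I to V and by fold change) in the 3 Ctrl and 3 OEx mice (columns). Colour is log2(FPKM + 1) minus the mean of the gene over the 6 mice. The strongest contrast lies in Uqcc2, Uqcc3, Ndufaf8 and Coa3, and Acad9, Lrpprc and Ttc19 show the opposite colours.

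The direction depended on how mice are scaled to each other. The deposited FPKM were not scaled to library totals: the total that each mouse was divided by came to 1.22 to 1.35 times its own recovered reads in the OEx group but 0.726 to 0.815 times in the Ctrl group. With FPKM rescaled to equal library totals, the median of all tested genes moved from -0.08 to 0.69 and that of the assembly factors from -0.49 to 0.30. Relative to all genes, the assembly factors then stood at -0.40, against -0.41 as deposited. Of 42 factors tested at library totals, 33 lay below the median of all genes, and 13 lay below 0. Uqcc2 was then the 1 factor called lower (-1.27), and Acad9, Lrpprc, Cox17, Ttc19, Tmem126b and Ndufaf4 were called higher. In that fit 479 of all 13117 tested genes were called lower and 4713 higher. All fold changes that follow are those of the FPKM as deposited.

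**Figure D2:**
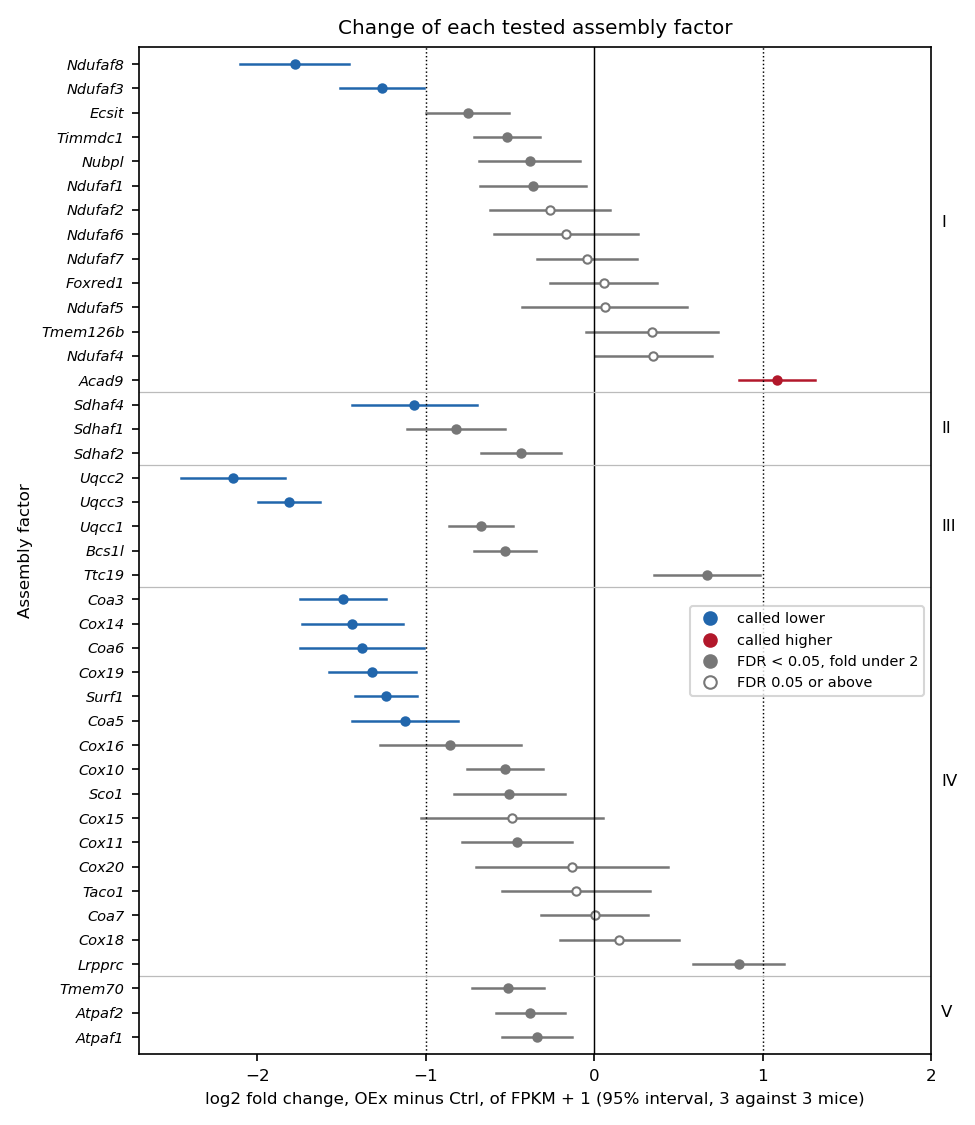
Log2 fold change of FPKM + 1, OEx minus Ctrl, for the 41 tested assembly factors, grouped by complex (right margin). Points are estimates and lines 95% intervals from limma over 3 OEx and 3 Ctrl mice, dotted lines mark a 2-fold change, and filled points passed an FDR of 0.05. 11 factors lie left of the lower dotted line and 1, Acad9, lies right of the upper one.

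Complex III held the largest decreases. UQCC1 and UQCC2 form a pair that binds newly made cytochrome b and supports its translation, and UQCC3 acts on the next intermediate. Uqcc2 (chr17:27122663-27133916 in GRCm38, minus strand) measured 14.6, 15.3 and 17.5 FPKM in OEx and 66.5, 67.8 and 86.2 in Ctrl. Every OEx mouse was below every Ctrl mouse by a wide margin, and the log2 fold change was -2.14 (SE 0.13, FDR 4.1e-05). Uqcc3 (chr19:8880014-8880923, minus strand) measured 33.1, 35.1 and 34.5 FPKM in OEx and 121, 118 and 129 in Ctrl (-1.81, SE 0.077, FDR 2.1e-05), with little spread within either group. Uqcc1, the partner of Uqcc2, fell by 0.67 on the log2 scale (FDR 0.00040).

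The remaining complex III factors act on the Rieske iron-sulfur protein. Bcs1l, the ATPase that moves this protein across the inner membrane and the member of the group with the smallest change, measured 6.27, 6.18 and 6.27 FPKM in OEx and 9.30, 9.87 and 9.16 in Ctrl, a decrease of 0.53 on the log2 scale (FDR 0.0010). Ttc19, which is needed to clear fragments of the Rieske protein, went the other way. It measured 3.11, 3.73 and 3.78 FPKM in OEx and 2.00, 1.47 and 2.11 in Ctrl, so the groups did not overlap, and its log2 fold change of 0.67 (FDR 0.0038) stayed under 2-fold. Lyrm7, the chaperone of the Rieske protein in the matrix, was under the filter, at 0.599, 0.584 and 0.370 FPKM in OEx and 0.467, 0.258 and 0.494 in Ctrl, with overlapping groups.

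Among the complex I factors, 2 were called lower and 1 higher of 14, shares at or under the 15.7% and 12.9% of all tested genes. NDUFAF8 is a small protein that stabilises NDUFAF5, a hydroxylase of a core subunit. Ndufaf8 (chr11:120098928-120100705, plus strand) measured 15.1, 16.6 and 14.8 FPKM in OEx and 50.1, 50.5 and 67.9 in Ctrl, and its log2 fold change was -1.78 (SE 0.14, FDR 8.1e-05). No OEx value of Ndufaf8 came near the Ctrl values. Ndufaf5 overlapped between groups, at 1.80 to 3.19 FPKM in OEx and 1.61 to 2.81 in Ctrl (0.06, 95% interval -0.43 to 0.55). NDUFAF3 and NDUFAF4 bind each other and help to build the part of complex I that passes electrons to ubiquinone. Ndufaf3 (chr9:108565537-108567434, minus strand) measured 7.93, 7.66 and 8.49 FPKM in OEx and 19.6, 18.9 and 23.5 in Ctrl (-1.26, SE 0.10, FDR 0.00011), with no overlap. Ndufaf4 measured 3.60, 3.64 and 2.54 FPKM in OEx and 2.19, 2.10 and 2.68 in Ctrl, with overlapping groups and an FDR of 0.068 (0.35).

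The MCIA complex assembles the membrane arm of complex I, and its core proteins are ACAD9, ECSIT and NDUFAF1. Acad9 (chr3:36065979-36092853, plus strand), a relative of the acyl-CoA dehydrogenases of fatty acid oxidation, was the 1 factor called higher. It measured 6.01, 5.72 and 5.70 FPKM in OEx and 2.33, 1.96 and 2.36 in Ctrl, a log2 fold change of 1.08 (SE 0.094, FDR 0.00012). All 3 OEx mice were above all 3 Ctrl mice. As deposited, its partners went down: Ecsit fell by 0.75 (FDR 0.00079) and Ndufaf1 by 0.36 (FDR 0.044) on the log2 scale. At library totals Ecsit stood at 0.059 and Ndufaf1 at 0.44, with Acad9 at 1.77. With each mouse corrected for exon length and GC, Ecsit stood at -0.13, Ndufaf1 at -0.24 and Acad9 at 0.89. As deposited, Timmdc1, a membrane partner of the MCIA core, fell by 0.51. Tmem126b, another such partner, stood at 0.34 with an FDR of 0.10.

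The remaining complex I factors had smaller changes. Nubpl, which delivers iron-sulfur clusters, fell by 0.38 on the log2 scale (FDR 0.032). Ndufaf7, a methyltransferase of a core subunit, had the smallest change of the group, at 5.47, 5.72 and 7.32 FPKM in OEx and 6.89, 6.28 and 5.90 in Ctrl (-0.04, 95% interval -0.34 to 0.25). Ndufaf2 (-0.26), Ndufaf6 (-0.17) and Foxred1 (0.06) did not pass either, and the groups overlapped in all 3.

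For complex IV, 6 of 16 tested factors were called lower and 0 higher by limma, beside 15.7% and 12.9% of all tested genes. Of the 16, 1 (Lrpprc) was higher by unadjusted p and by FDR alone, and was called higher by limma-voom. COX14 and COA3 hold newly made COX1, the catalytic core subunit. Coa3 (chr11:101277968-101279114, minus strand) measured 51.2, 52.0 and 57.8 FPKM in OEx and 157, 135 and 166 in Ctrl (-1.49, SE 0.11, FDR 6.7e-05). Cox14 (chr15:99725618-99728136, plus strand) measured 60.0, 67.3 and 74.0 FPKM in OEx and 174, 166 and 209 in Ctrl (-1.43, SE 0.13, FDR 0.00013). Together with Uqcc3 they had the highest FPKM, a level per length, of the 45 factors in each mouse, and in both every OEx mouse was far below the Ctrl mice. Surf1 (chr2:26913381-26916530, minus strand), which acts at the step that places heme in COX1, measured 25.0, 24.6 and 27.2 FPKM in OEx and 62.6, 62.0 and 60.1 in Ctrl (-1.23, SE 0.077, FDR 4.5e-05).

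The tested copper factors were all lower by FDR alone as deposited, as were 36.5% of all tested genes. Cox17 stood higher in OEx but was not tested. COA6, COX19, COX17, COX11 and the SCO proteins pass copper to the centres of COX1 and COX2. Coa6 (chr8:126422515-126425433, plus strand) measured 14.6, 14.9 and 16.3 FPKM in OEx and 37.7, 35.5 and 52.2 in Ctrl (-1.38, SE 0.15, FDR 0.00032). Cox19 (chr5:139336189-139351418, minus strand) measured 4.19, 4.15 and 5.32 FPKM in OEx and 13.2, 12.3 and 12.8 in Ctrl (-1.32, SE 0.11, FDR 0.00010). Coa6 and Cox19 did not overlap between groups, and Coa5, a small protein whose own task in complex IV is less clear, was lower as well. Coa5 (chr1:37417084-37430103, minus strand) measured 11.8, 12.1 and 12.7 FPKM in OEx and 31.0, 30.2 and 22.7 in Ctrl (-1.12, SE 0.13, FDR 0.00040). Sco1 fell by 0.50 (FDR 0.016) and Cox11 by 0.46 (FDR 0.022) on the log2 scale, both under 2-fold. Sco2 was listed at 0 in all 6 mice.

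Cox17, the copper donor of the SCO proteins, had a mean under 1 FPKM and was not tested. It measured 1.55, 1.55 and 1.45 FPKM in OEx and 0.166, 0.308 and 0.433 in Ctrl, from 178, 204 and 151 reads against 12, 23 and 38. The groups did not overlap, with OEx above. Fitted with no filter, its log2 fold change was 0.95 (limma FDR 0.0018), short of 2-fold on the log2(FPKM + 1) scale. On recovered reads with limma-voom and no filter it was 2.37 (FDR 0.00055). The annotated exons of Cox17 sum to 5773 bases and include retained introns, and 100% of its coding bases also belong to the read-through gene Gm21987, which was listed at 0 FPKM in all mice. Which part of the gene these reads came from was not tested.

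Other complex IV factors changed less on the log2(FPKM + 1) scale. COX10 and COX15 make heme A: Cox10 fell by 0.53 on the log2 scale (FDR 0.0024), and Cox15 stood at -0.49 with an FDR of 0.095, at 3.90 to 4.95 FPKM in OEx and 4.32 to 8.35 in Ctrl. Of the factors that handle COX2, Cox16 fell by 0.85 (FDR 0.0046), while Cox18 (0.15) and Cox20 (-0.13) did not pass. Cox16 was called lower with pseudocount 0.1 (-1.19), by limma-voom (-1.28) and after the exon length and GC correction (-1.53). Coa7 had the smallest change of the group, at 2.16, 2.11 and 2.19 FPKM in OEx and 1.70, 2.63 and 2.17 in Ctrl, where the OEx mice lay within the Ctrl range. Taco1, which activates the translation of COX1, did not pass either (-0.11). Lrpprc (chr17:84705247-84790789, minus strand), an RNA-binding protein that keeps mitochondrial mRNAs stable, was higher in OEx. It measured 7.02, 7.02 and 7.59 FPKM in OEx and 3.01, 3.53 and 4.10 in Ctrl, with no overlap, and its log2 fold change of 0.86 (SE 0.11, FDR 0.00064) was just under the 2-fold limit.

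Every tested factor of complexes II and V was lower by FDR alone, as were 36.5% of all tested genes. Of these factors 1 was called lower, as were 15.7% of all tested genes. SDHAF4 holds the flavin subunit SDHA until it joins SDHB. Sdhaf4 (chr1:23995939-24005656, minus strand) measured 6.60, 5.85 and 7.92 FPKM in OEx and 15.1, 12.8 and 18.2 in Ctrl (-1.07, SE 0.16, FDR 0.0010). This call sat at the limit and was lost without OEx replicate 2 (-0.98) or without Ctrl replicate 3 (-0.94). Sdhaf1, needed for the iron-sulfur clusters of SDHB, fell by 0.82 on the log2 scale (FDR 0.0011). Sdhaf2, which serves the attachment of the flavin to SDHA, measured 8.26, 8.02 and 7.80 FPKM in OEx and 12.7, 10.2 and 10.8 in Ctrl, a decrease of 0.43 (FDR 0.0077). Sdhaf3, another iron-sulfur factor, was under the filter, at 0.600, 0.609 and 0.555 FPKM in OEx and 0.769, 0.682 and 0.827 in Ctrl. All 3 of its OEx values were below its Ctrl values, and its limma FDR with no filter was 0.29. ATPAF1 and ATPAF2 are chaperones of the beta and alpha subunits of the ATP synthase head. Atpaf1 measured 2.33, 2.35 and 2.35 FPKM in OEx and 3.15, 3.34 and 3.21 in Ctrl, a small but even decrease of 0.34 (FDR 0.012). Atpaf2 fell by 0.38 (FDR 0.0073) and Tmem70, which helps to form the c-subunit ring, by 0.51 (FDR 0.0024), and with all 3 lower by FDR and by unadjusted p, 0 passed the 2-fold limit in limma or limma-voom.

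Ratios of partner genes within a mouse do not depend on the scaling between mice, and the pairs given here were chosen after the values had been seen. The log2 ratio of Ecsit to Acad9 FPKM was 0.00, 0.15 and 0.32 in OEx and 2.46, 2.47 and 2.23 in Ctrl, a difference of -2.23 (exact two-sided permutation p = 0.1, the smallest that 3 against 3 mice allow). The ratio of Ndufaf3 to Ndufaf4 differed by -1.84, that of Ndufaf8 to Ndufaf5 by -1.93, that of Ndufaf1 to Acad9 by -1.80 and that of Uqcc2 to Uqcc1 by -1.39, each with no overlap between groups and an exact p of 0.1. The ratio of Coa3 to Cox14 was -0.23, -0.37 and -0.36 in OEx and -0.15, -0.30 and -0.33 in Ctrl. Here the groups overlapped (difference -0.06, exact p = 0.5), and both genes were called lower. The ratios were not corrected for exon length and GC. With each mouse so corrected, log2 fold changes were -0.52 for Ndufaf3 and -0.42 for Ndufaf4, and -1.34 for Uqcc2 and -0.66 for Uqcc1. They were -0.94 for Ndufaf8 and 0.28 for Ndufaf5, and -0.13 for Ecsit, -0.24 for Ndufaf1 and 0.89 for Acad9.

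Nuclear subunits, the clients of these factors, had lower median fold changes, a difference that was not tested. Of 80 tested subunits, 61 were called lower and 0 higher by limma, beside 15.7% and 12.9% of all tested genes. By FDR alone, and at an unadjusted p under 0.05, 75 were lower and 1 was higher, and limma-voom called 0 higher. Of all tested genes, 36.5% were lower and 30.7% higher by FDR alone. Their median log2 fold change was -1.29. The median was lower for subunits than for factors in each complex: -1.28 against -0.21 for complex I, -1.34 against -0.82 for II, -1.10 against -0.67 for III, -1.40 against -0.52 for IV and -1.27 against -0.38 for V. Summed over the 45 factors, FPKM were 387, 398 and 421 in OEx and 930, 883 and 1021 in Ctrl. Nuclear subunits summed to 10.1 to 10.5 times the factors in OEx and 12.1 to 13.4 times in Ctrl, with no overlap. Among the 13 protein genes of the mitochondrial genome 1, mt-Nd3, was called lower (-1.21) and 0 higher by limma or limma-voom. In limma 15.7% of all tested genes were called lower and 12.9% higher. At an unadjusted p under 0.05, 3 of the 13 were lower and 2 higher. By FDR alone 3 were lower and 1 higher, beside 36.5% and 30.7% of all tested genes, and the median of the 13 was -0.03.

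Single clients are given here beside their factors. SDHA is the client of SDHAF2 and SDHAF4. Sdha measured 40.2, 39.9 and 50.8 FPKM in OEx and 49.9, 49.7 and 43.0 in Ctrl, with overlapping groups (-0.13). Sdhb, the client of SDHAF1 and SDHAF3, was called lower (-1.65). The mRNA of cytochrome b, mt-Cytb, stood at 0.08 beside -2.14 for Uqcc2, and that of COX1, mt-Co1, at -0.03 beside -1.49 for Coa3. Uqcrfs1, the Rieske protein gene, fell by 0.99 on the log2 scale beside 0.53 for Bcs1l. Atp5b, client of ATPAF1, was called lower (-1.23), and so was Atp5g1, a c-subunit gene (-1.65), beside -0.34 for Atpaf1 and -0.51 for Tmem70. The called subunit with the largest change was Ndufb4 (-2.12) for complex I, Sdhb for II, Uqcrq (-2.52) for III, Cox8a (-2.01) for IV and Atp5e (-1.92) for V.

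**Figure D3:**
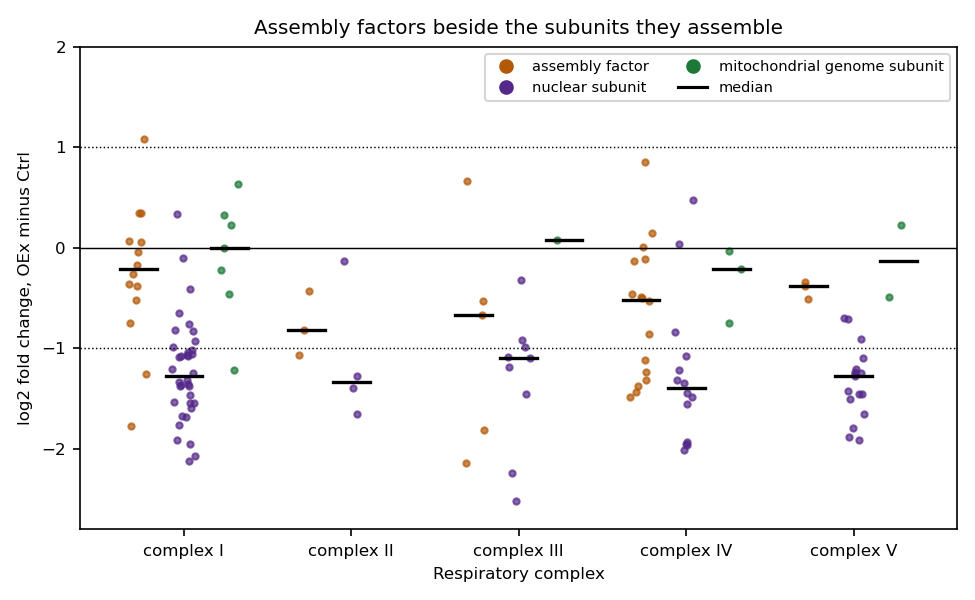
Log2 fold change of FPKM + 1, OEx minus Ctrl, by respiratory complex for assembly factors, nuclear subunits and mitochondrial genome subunits. Each point is a gene and black bars are medians, which lie lower for nuclear subunits than for assembly factors in each complex.

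The factors called lower were mostly short genes at high levels per length. Across the 41 tested members, Spearman's rho of the log2 fold change was 0.52 with exon length, 0.63 with coding length, -0.47 with the GC percentage of the exons and -0.67 with mean FPKM. The points share the same 6 libraries and the same groups, and the level on the x axis holds the values that make up the fold change. Over 12463 tested genes with an annotated exon length, rho with exon length was 0.28, and with GC it was -0.38. The 5 members in the shortest decile of genes, up to 861 bases, had a median log2 fold change of -1.78, beside -0.33 for all genes of that decile. Longer members stood on both sides: Acad9 (8192 bases) and Lrpprc (8504 bases) lay above the 0.27 of all genes of their decile, and Cox19 (3747 bases) and Coa5 (5220 bases) were called lower among genes with medians of -0.20 and 0.02. After each mouse was corrected for exon length and GC, 5 factors were called lower (Uqcc2, Uqcc3, Coa5, Coa6 and Cox16) and none higher, with Acad9 at 0.89. In that fit 1137 of all 12463 tested genes were called lower and 1374 higher. The median of the members was -0.31, beside -0.007 over all genes.

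**Figure D4:**
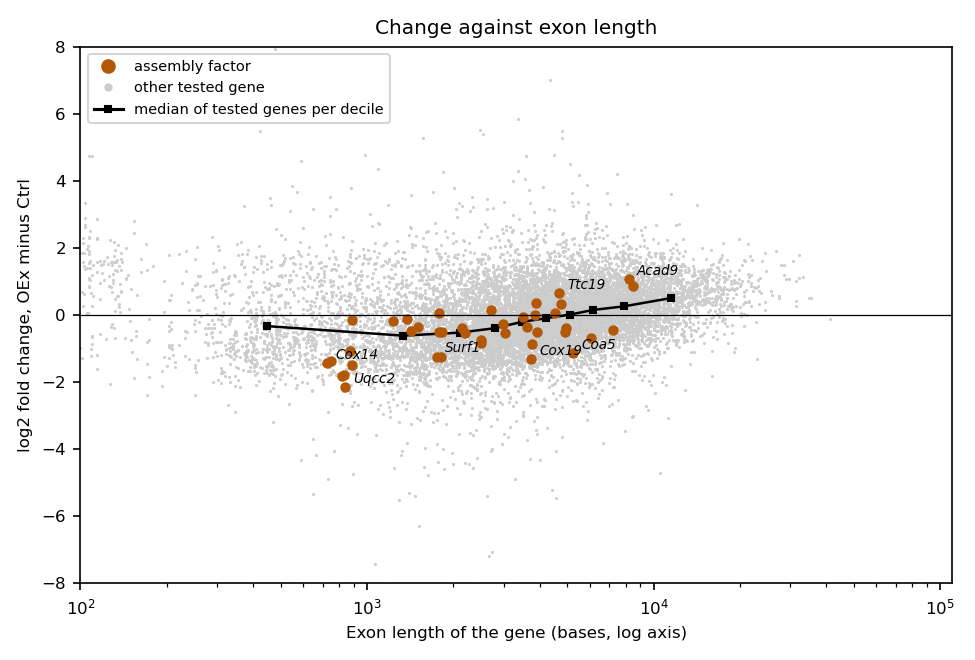
Log2 fold change of FPKM + 1, OEx minus Ctrl, against exon length on a log axis, for tested genes (grey), the assembly factors (orange) and the median of each decile of genes by exon length (black). The 5 assembly factors of the shortest decile have a median of -1.78, below the black line, Acad9 and Ttc19 lie above it, and 141 genes fall outside the axes.

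Some factors share bases with neighbouring genes, and how reads in shared bases were assigned, or whether strand was used, is not given in the sources used here. Of the 45 factors, 26 share no exon base with another annotated gene. In 6 (Ndufaf2, Sdhaf1, Cox16, Cox17, Cox20 and Sco2) at least 50% of exon or coding bases are shared, and 0 of the 6 were called as deposited, with Cox16 and Sdhaf1 called lower by limma-voom. Cox20 shares 91.1% of its exon bases with the antisense gene Hnrnpu, which was called higher (1.29), and its values ran from 0.568 to 1.94 FPKM in OEx and 1.19 to 1.57 in Ctrl. Sco2 shares 100% of its coding bases with Tymp or the antisense gene Ncaph2. The 12 called factors share at most 14.1% of their exon bases.

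The bases before the start site are shown for 5 factors that went different ways: Uqcc2 and Uqcc3 as the largest decreases, Bcs1l as a small one, and Lrpprc and Ttc19 as increases. They are RefSeq windows on GRCm38.p6, read 5′ to 3′ on the strand of the gene and ending before its annotated first exon. Uqcc2 is chr17:27133917-27134141 (minus strand), Uqcc3 chr19:8880934-8881183 (minus), Bcs1l chr1:74588039-74588288 (plus), Lrpprc chr17:84790790-84791036 (minus) and Ttc19 chr11:62281223-62281472 (plus). Capitals mark letters searched for on both strands: CCGGAAGT for GABPA and GCATGCGC for NRF1, which are factors known from promoters of respiratory genes, and TGGGAA for RBPJ, the DNA-binding partner of Notch.
Uqcc2: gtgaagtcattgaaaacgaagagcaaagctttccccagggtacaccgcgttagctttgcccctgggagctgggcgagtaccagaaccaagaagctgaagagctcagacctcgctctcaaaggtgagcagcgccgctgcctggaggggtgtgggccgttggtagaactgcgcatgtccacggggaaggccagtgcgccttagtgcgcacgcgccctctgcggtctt
Uqcc3: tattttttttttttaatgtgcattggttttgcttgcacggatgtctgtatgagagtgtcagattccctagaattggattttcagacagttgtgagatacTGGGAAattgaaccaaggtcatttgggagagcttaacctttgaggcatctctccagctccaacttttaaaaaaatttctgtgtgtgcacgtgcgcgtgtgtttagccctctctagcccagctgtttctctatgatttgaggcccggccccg
Bcs1l: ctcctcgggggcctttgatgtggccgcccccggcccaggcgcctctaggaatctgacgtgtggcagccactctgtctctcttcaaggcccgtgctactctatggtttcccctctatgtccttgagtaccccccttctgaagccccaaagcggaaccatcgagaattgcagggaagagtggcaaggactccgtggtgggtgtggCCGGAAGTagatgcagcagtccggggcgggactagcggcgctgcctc
Lrpprc: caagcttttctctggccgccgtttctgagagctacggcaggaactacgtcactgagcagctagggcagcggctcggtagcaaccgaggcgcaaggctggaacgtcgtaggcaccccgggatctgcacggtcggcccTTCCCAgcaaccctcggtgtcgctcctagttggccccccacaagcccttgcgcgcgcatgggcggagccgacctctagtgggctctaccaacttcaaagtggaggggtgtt
Ttc19: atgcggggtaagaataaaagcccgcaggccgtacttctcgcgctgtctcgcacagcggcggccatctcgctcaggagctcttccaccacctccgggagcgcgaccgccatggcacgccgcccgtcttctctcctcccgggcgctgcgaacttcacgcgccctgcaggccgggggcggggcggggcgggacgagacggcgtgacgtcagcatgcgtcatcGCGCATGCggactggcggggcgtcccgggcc
In these windows the GABPA letters lie 47 bases before the start of Bcs1l and the NRF1 letters, on the other strand, 31 bases before that of Ttc19. The RBPJ letters lie 151 bases before the start of Uqcc3 and, on the other strand, 114 bases before that of Lrpprc, so they occur beside a decrease and beside an increase. Uqcc2 held none of the 3. Windows of 300 bases (250 before and 50 after the start) were found for 39 of the 45 factors. The GABPA letters occurred in 14.6% of the 41 windows of these factors and in 3.89% of 32851 windows of all genes, the NRF1 letters in 7.32% and 2.71%, and the RBPJ letters in 19.5% and 25.6%. Of the 10 factors called lower that had a window, 1 (Cox14) held the GABPA letters, 0 the NRF1 letters and 2 (Uqcc3 and Coa5) the RBPJ letters. A match of letters is a description of the window and does not show binding.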

How the data were processed

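Gene expression in whole AP was measured by RNA-seq in 3 OEx and 3 Ctrl mice. Per mouse the authors deposited a table of FPKM values with gene symbols, and the submitters' processing notes name CASAVA, HISAT2 2.0.5, StringTie 1.3.3b and featureCounts 1.5.0-p3. The genome build is not given in the sources used here. Exon lengths of GENCODE vM21 (GRCm38) turned 96.9% to 97.5% of the deposited values under 1000 reads into whole reads (within 0.05 reads), which gave 14762182 to 18650962 reads per mouse. At that depth 3 reads come to 0.161 to 0.203 CPM, which covers counting error only, since PCR copies cannot be told from molecules.

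The groups were fitted on log2(FPKM + 1) by limma 3.58.1 (R 4.3.3) without covariates, with the trend option of eBayes, in all 12833 rows whose mean reached 1 FPKM, and p-values were adjusted over them by Benjamini-Hochberg. A call needed an FDR under 0.05 and a log2 fold change beyond 1 in either direction. The fit was tested on simulated data for this comparison: of 200 changed among 12489 genes, 97.5% were called with the right sign, and of 12289 genes left as they were 9 were called. Far more genes passed in the data, 4680 lower and 3941 higher by FDR alone. These rates therefore hold for the simulated setting and may not carry over. Exact permutation tests were two-sided over all 20 assignments of 3 of 6 mice. The labels do not say that mice came from separate litters, and p-values measure the spread between these samples. Replicates 1 and 2 of a group differed by more than sampling noise (chi-square per degree of freedom 3.67 in OEx and 2.93 in Ctrl) but far less than either did from replicate 3, and were kept as separate samples as the labels give them. If they share a mouse or pool, the p-values are too small.

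Alternatives were pseudocount 0.1, no filter, 3 other scalings, the replicate number as a block, a lowess correction for exon length and GC (span 0.3), limma-voom on recovered reads, leaving out mice and FDR alone. Averaging replicates 1 and 2 of each group as 1 sample was added after seeing the data. The members and lists were chosen with earlier results of these data known. Values per mouse are given for every called factor, every factor higher at FDR under 0.05, the factor with the smallest change in each complex and those under the filter, and any other such value was chosen after the data were seen.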

Additional observations from a re-analysis of the deposited data

How the results depend on the processing

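As deposited, 11 assembly factors were called lower and 1 higher, 61 nuclear and 1 mitochondrial genome subunits lower and none of either higher, and the median log2 fold change of the factors was -0.49. Relative to the median of all genes it lay between -0.30 and -0.48 in all 18 settings. At library totals 1 factor was called lower and 6 higher (median 0.30), with 11 nuclear subunits lower and 1 higher, and 0 mitochondrial genome subunits lower and 4 higher. Library totals without the 20 most abundant genes gave 3 factors lower and 4 higher (median 0.080), 18 nuclear subunits lower, and 0 mitochondrial genome subunits lower and 1 higher. Upper-quartile scaling gave 7 factors lower and 2 higher (median -0.25) and 0 mitochondrial genome subunits lower. The exon length and GC correction gave 5 factors lower and 0 higher (median -0.31), 34 nuclear subunits lower and 1 higher, and 4 mitochondrial genome subunits lower, and together with the replicate block it gave the same counts except for the 1 higher. Pseudocount 0.1 gave 2 factors higher (median -0.56), as did limma-voom on recovered reads (median -0.56), in both Acad9 and Lrpprc. With no filter the median was -0.45. FDR alone gave 26 factors lower and 3 higher, 1 nuclear subunit higher, and 3 mitochondrial genome subunits lower and 1 higher. The cause of these shifts was not tested. Over all tested genes, limma called 479 of 13117 lower and 4713 higher at library totals. Without the 20 most abundant genes it called 692 lower and 3632 higher of 13006. With upper-quartile scaling it called 1312 lower and 2380 higher of 12893. With the exon length and GC correction it called 1137 lower and 1374 higher of 12463. With pseudocount 0.1 it called 2459 lower and 2307 higher of 12833, and limma-voom called 2390 lower and 2240 higher of 12463.

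Averaging replicates 1 and 2 of each group as 1 sample, chosen after seeing the data, gave 11 factors lower and 1 higher (median -0.43), 62 nuclear subunits lower and 1 mitochondrial genome subunit lower, and turned the sign of Ndufaf5 (-0.015), Ndufaf7 (0.034), Cox20 (0.022) and Coa7 (-0.0028). Over all tested genes the averaged fit called 2000 lower and 1617 higher of 12830. Leaving out both replicate 3 mice keeps the libraries that are much alike and says nothing about stability. Leaving out a mouse, or both replicate 3 mice, gave 10 to 11 factors lower and 1 to 2 higher (2 without Ctrl replicate 3, Acad9 and Cox17), medians from -0.49 to -0.39, 56 to 63 nuclear subunits lower and 0 to 1 higher, and 0 to 1 mitochondrial genome subunits lower. Over all tested genes these fits with mice left out called 1986 to 2118 lower and 1577 to 1848 higher, of 12685 to 12946. The replicate numbers do not pair the mice: same-numbered mice correlated at -0.19, -0.19 and -0.31 in their deviations from the group means. The replicate block gave 11 factors lower and 1 higher, a median of -0.49, and the same call for all 41. With that block 1986 of all 12833 tested genes were called lower and 1611 higher.

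Factors that turned positive at library totals were Ndufaf1 0.44, Ndufaf2 0.43, Ndufaf6 0.50, Ndufaf7 0.73, Ecsit 0.059, Timmdc1 0.33, Nubpl 0.13, Sdhaf2 0.39, Bcs1l 0.27, Uqcc1 0.072, Cox10 0.20, Cox11 0.18, Cox15 0.27, Cox20 0.37, Sco1 0.18, Taco1 0.65, Atpaf1 0.32, Atpaf2 0.45 and Tmem70 0.35. Without the 20 most abundant genes they were Ndufaf1 0.22, Ndufaf2 0.24, Ndufaf6 0.32, Ndufaf7 0.52, Timmdc1 0.10, Sdhaf2 0.16, Bcs1l 0.055, Cox10 0.00044, Cox11 0.0044, Cox15 0.063, Cox20 0.23, Taco1 0.45, Atpaf1 0.14, Atpaf2 0.22 and Tmem70 0.11. With upper-quartile scaling they were Ndufaf6 0.043, Ndufaf7 0.20, Cox20 0.024 and Taco1 0.13. With the exon length and GC correction, with or without the block, Ndufaf4 (-0.42) and Tmem126b (-0.31) turned negative and Ndufaf6 (0.55), Timmdc1 (0.13), Taco1 (0.62) and Atpaf2 (0.24) positive. With a mouse left out, or both replicate 3 mice, the sign changed for Ndufaf5 (-0.10 to 0.21), Ndufaf7 (-0.20 to 0.025), Cox20 (-0.41 to 0.11), Coa7 (-0.11 to 0.11), Taco1 (-0.30 to 0.044) and Foxred1 (-0.082 to 0.14).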
